A study of Schizosaccharomyces pombe with 2 samples.

Results

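Mitochondrial ribosomal protein genes of fission yeast (Schizosaccharomyces pombe) were compared between a strain lacking mga2 and its control, both held without oxygen. The genes were chosen by name: every gene probe whose reference symbol begins with mrpl, mrps, mrp, rsm or img and a number. The rule matched 62 symbols of the reference annotation, and 61 of them had a probe among the 5057 gene probes of the array. The symbol without a probe was mrp1, which names the RNA of RNase MRP and no ribosomal protein. Of the 61 probes, rsm1 also carries a fitting name without being a ribosomal protein gene: in fission yeast it names an mRNA export factor. Its own log2 ratio was 0.02 on the first array and −0.23 on the second, and it was not called (−0.10 ± 0.18, limma adjusted p = 0.474, n = 2 arrays). It was kept under the rule, and leaving it out gave 9 lowered and 0 raised among 60, the same counts as with it.

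The mitochondrial ribosome translates the few proteins that mitochondrial DNA encodes, most of them core subunits of the respiratory chain and ATP synthase. Its RNAs come from mitochondrial DNA, whereas nearly all of its proteins come from nuclear genes, are made on cytoplasmic ribosomes and are imported. The large subunit (mrpl and img names) holds the peptidyl transferase centre and the tunnel through which the new chain leaves. The small subunit (mrps and rsm names) binds the mRNA and reads its codons. In budding yeast (Saccharomyces cerevisiae), nuclear genes of this group follow growth and carbon source.

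The deletion strain was ESY173 (mga2Δ) and the control KGY425, which the sample labels call wild type (WT). According to the design text the comparison was made in an sre1D background, so the control would itself lack sre1, which encodes the SREBP transcription factor of sterol control. Both strains were grown to log phase in rich YES medium and spent 1.5 h in an anaerobic chamber. Mga2 is an activator of lipid genes, and the study asks how its loss bears on lipid balance and SREBP activation. RNA of 2 biological replicate pairs was hybridised to 2 two-colour Agilent arrays, with mga2Δ in Cy5 on array 1 and in Cy3 on array 2. No sample with oxygen was analysed here.

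Each array carried 3 spots per probe, and median gene-spot intensities lay between 858 and 2322.5, against 18 to 62 at negative control spots. Ratios are given as log2 of mga2Δ over WT after loess normalization, which places most genes near 0, with the SD over n = 2 arrays. The test is limma's moderated test of the mean ratio against 0, two-sided, with Benjamini-Hochberg adjustment over 4964 tested genes and a threshold of 0.05. The 2 arrays leave 1 residual degree of freedom per gene, so the number of arrays limits the precision. On simulated arrays of this size the prior spread was mostly estimated as too uniform across genes. The share of false calls exceeded the threshold in most draws, so adjusted p-values near the threshold may be too small. The simulated arrays held fewer changed genes than were called here, so the excess in these data is not known. The deleted gene mga2 was at least 84.95-fold lower in mga2Δ (limma adjusted p = 1.26e-05). This is a bound, since 0 of the probe's 3 spots on array 1 and 1 on array 2 were well above background in that strain. The sre1 probe had no spot well above background in either strain.

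Mitochondrial ribosomal protein genes moved little as a group. The few called after loess normalization were all lowered, at a share near that of all tested genes. Of 61 members, 9 were lowered in mga2Δ, 0 were raised and 52 did not pass the test. The shares among all genes tested were 10.9% lowered and 18.4% raised. The share of members lowered, 14.8%, was near the first of these. At an unadjusted p of 0.05, 1 member was higher (1.64%, against 24.1% of all tested genes) and 11 were lower (18.03%, against 17.6%). The median of the members was −0.09, with quartiles of −0.19 and −0.01, and that of all tested genes was 0.00, with quartiles of −0.16 and 0.22. Mean ratios lay within 0.2 of 0 for 47 of 61 members (77.0%), and for 53.4% of all tested genes. All 61 members passed the filter on dim probes, and each was well above background in both strains on both arrays. The channel levels of the strains did not overlap in 28 members with mga2Δ lower (32.8% of all tested genes) and in 5 with mga2Δ higher (36.4%).

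**Figure D1:**
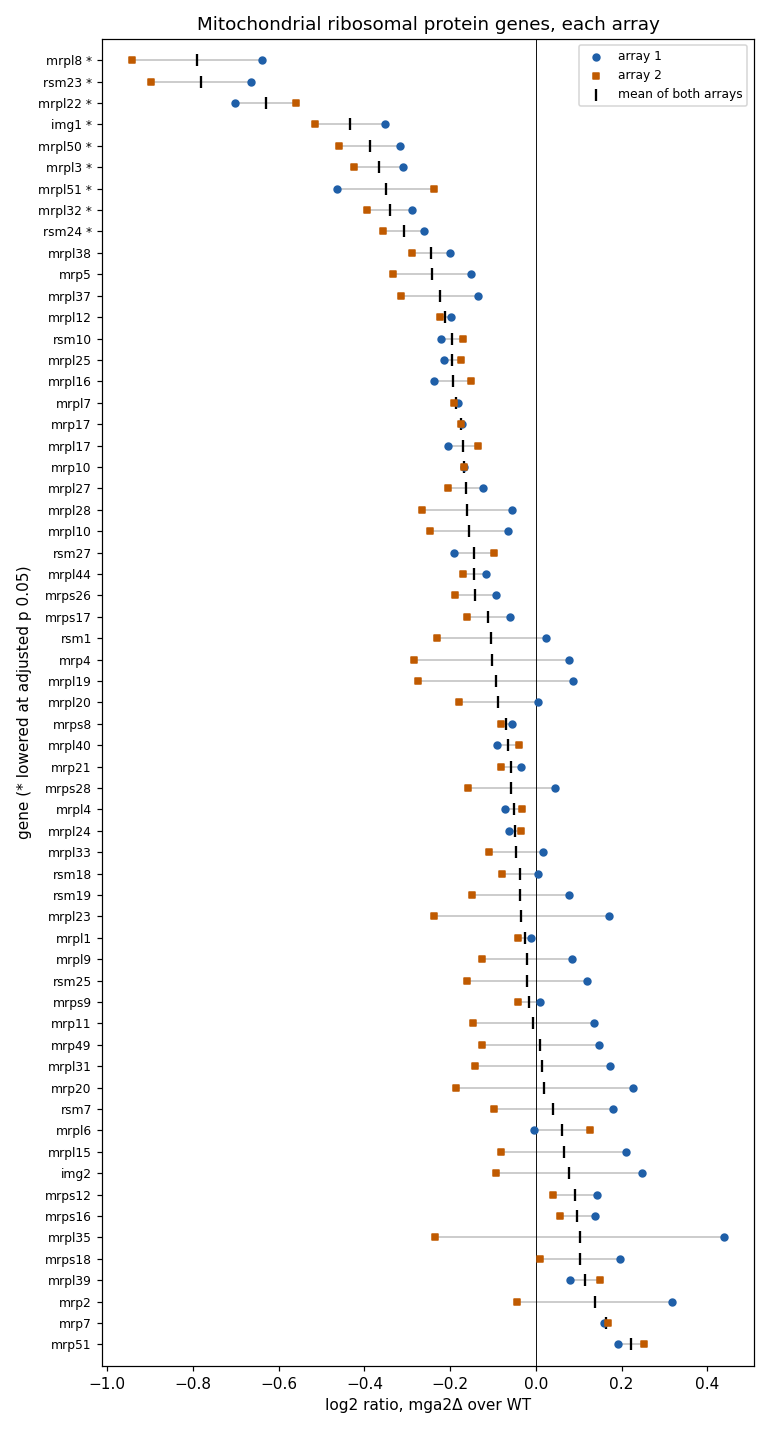
Log2 ratio of mga2Δ over WT for each of the 61 genes (vertical axis), on array 1 (circles), array 2 (squares) and as the mean (bars). The names with an asterisk are the 9 lowered genes, from mrpl8 at −0.79 to rsm24 at −0.31, and the highest mean is that of mrp51 at 0.22.

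Of the 9 lowered members, 7 belong to the large subunit, led by mrpl8 and mrpl22. The gene of the large-subunit protein Mrpl8 had a normalized log2 intensity in WT of 10.17 on array 1 and 10.43 on array 2. In mga2Δ it stood at 9.53 and 9.48, so both mga2Δ levels lay below both WT levels. Its log2 ratios of −0.64 and −0.94 gave a mean of −0.79 ± 0.21 (SD, n = 2 arrays, limma adjusted p = 0.00258), or 1.73-fold lower. The gene mrpl22, whose budding yeast counterpart lines the exit tunnel of the large subunit, stood at 11.32 and 11.14 in WT. In mga2Δ its levels were 10.62 and 10.59, again without overlap. The mean ratio was −0.63 ± 0.10 (adjusted p = 0.00373), or 1.55-fold lower, and mrpl22 was 1 of the 2 lowered members with the larger drop on array 1.

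The other 5 lowered large-subunit genes fell by less. For img1, named after a budding yeast gene needed for the integrity of mitochondrial DNA, WT levels were 9.74 and 9.72 and mga2Δ levels 9.39 and 9.21. That gave a mean ratio of −0.43 ± 0.12 (limma adjusted p = 0.0163, n = 2 arrays). The ratio of mrpl50 was −0.32 on array 1 and −0.46 on array 2, with a mean of −0.39 ± 0.10 (adjusted p = 0.0229). For mrpl3, whose budding yeast counterpart resembles an RNase III enzyme, it was −0.31 and −0.42 (mean −0.37 ± 0.08, adjusted p = 0.0261). These drops were nearly equal in size, and their spread over arrays overlapped. The mrpl51 ratio was −0.46 on array 1 and −0.24 on array 2 (mean −0.35 ± 0.16, adjusted p = 0.0387). The mrpl32 ratio was −0.29 and −0.39 (mean −0.34 ± 0.07, adjusted p = 0.0323). In each of these 5 genes the mga2Δ levels of both arrays lay below both WT levels.

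In the small subunit rsm23 and rsm24 were lowered. Rsm23 is, in budding yeast, the counterpart of the GTP-binding protein DAP3, known in animal cells for a part in cell death. Its WT levels were 11.47 on array 1 and 11.58 on array 2, and its mga2Δ levels 10.81 and 10.68. The mean ratio of −0.78 ± 0.17 (limma adjusted p = 0.00197, n = 2 arrays), or 1.72-fold lower, was close to that of mrpl8, and these ratios differed by less than their spread over arrays. The rsm24 levels of 10.52 and 10.63 in WT and 10.26 and 10.27 in mga2Δ gave −0.31 ± 0.07 (adjusted p = 0.0436). Next in order, and not past the test, came the large-subunit gene mrpl38 (−0.24 ± 0.06, adjusted p = 0.0866) and the small-subunit gene mrp5 (−0.24 ± 0.13, adjusted p = 0.101). The large-subunit genes mrpl37 (−0.22 ± 0.13, adjusted p = 0.123) and mrpl12 (−0.21 ± 0.02, adjusted p = 0.121) followed.

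**Figure D2:**
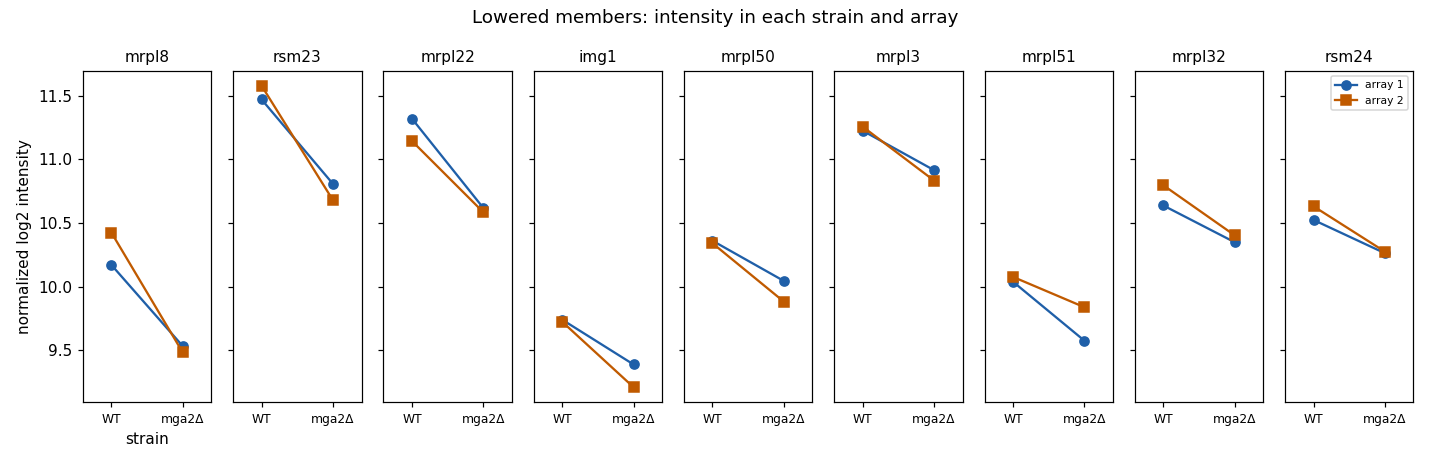
Normalized log2 intensity of the 9 lowered genes in WT and mga2Δ, with a line per array (circles, array 1; squares, array 2). In each panel both mga2Δ points lie below both WT points, while levels in different panels come from different probes and are not compared.

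The drop was largest in mrpl8, rsm23 and mrpl22. These 3 had mean ratios at least 0.5 in size, as did 14.6% of all tested genes. A drop of at least 1.5-fold on both arrays was seen for 2 members, mrpl8 and rsm23, and for 1.49% of tested genes. No member rose by as much on both arrays, against 7.11% of tested genes. Calls of these 3 genes held in 12 of 13 alternative settings that allow a test, and were lost when each array was centred on its median without correction of the dye curve (adjusted p = 0.112 for each). Their ratios there were −0.77 for mrpl8, −0.80 for rsm23 and −0.64 for mrpl22, close to the reported ones. The other 6 lowered genes held in 10 of 13, and were also lost when the prior degrees of freedom were set to 2.81 (5.62 as estimated) and when spike-in RNAs set the zero. Centring on the spike-in RNAs put the median of all tested genes at 0.20, and there 6 members were raised (38.7% of all tested genes were): mrp51, mrp7, mrpl39, mrps12, mrps16 and mrps18. The members' median in that setting was 0.11, still below that of all genes.

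Members of the large and small subunits were then set side by side. The 34 genes placed in the large subunit by symbol or synonym, mrp11 among them, had a median of −0.15. Of these, 7 were lowered (20.6%, against 10.9% of all tested genes) and 27 not called. The 17 genes placed in the small subunit, mrp5 among them, had a median of −0.06, with 2 lowered (11.8%, near the share of all tested genes) and 15 not called. None of either was raised, against 18.4% of all tested genes. The 9 mrp-named genes with no subunit in symbol or synonym had a median of 0.01, and none was called. By their budding yeast counterparts some of these belong to a subunit, such as mrp51 (0.22) and mrp10 (−0.17) to the small one. The bacterial counterpart of mrp7 (0.16) is a large-subunit protein. The subunit medians therefore depend on which genes the names place. Among small-subunit genes, the 8 with mrps names lay between −0.14 and 0.10 and none was called. Whether the subunits differ was not tested, because genes are not replicates of a condition. With spike-in centring the large-subunit median turned to 0.05 and that of the small subunit to 0.14.

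No member had a raised call, and the highest ratios were small. The highest was that of mrp51, at 0.19 on array 1 and 0.25 on array 2 (0.22 ± 0.04, limma adjusted p = 0.107, n = 2 arrays). Its budding yeast counterpart is a small-subunit protein that acts on the mRNA leaders of cytochrome oxidase subunits. Next came mrp7, the counterpart of a bacterial large-subunit protein near the peptidyl transferase centre, at 0.16 on array 1 and 0.17 on array 2 (adjusted p = 0.213). The ratios of mrp2, mrpl39, mrps18 and mrpl35 were 0.14, 0.11, 0.10 and 0.10, with adjusted p-values between 0.374 and 0.665. Of these 6 genes, mrp2 (0.32 and −0.04) and mrpl35 had ratios of opposite sign on the arrays.

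The arrays were not equal in level for these genes. The members' median was −0.06 on array 1 and −0.16 on array 2, where the medians of all tested genes were 0.01 and 0.01. The ratio was higher on array 1 in 46 of 61 members (75.4%), and in 46.9% of all tested genes. Ratios were below 0 on both arrays in 33 members (54.1%, against 37.6% of tested genes) and above 0 on both in 6 (9.84%, against 40.1%). They had opposite signs in 22 members (36.1%, against 22.3%). The arrays differ in dye orientation and replicate pair together, so these cannot be told apart.

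**Figure D3:**
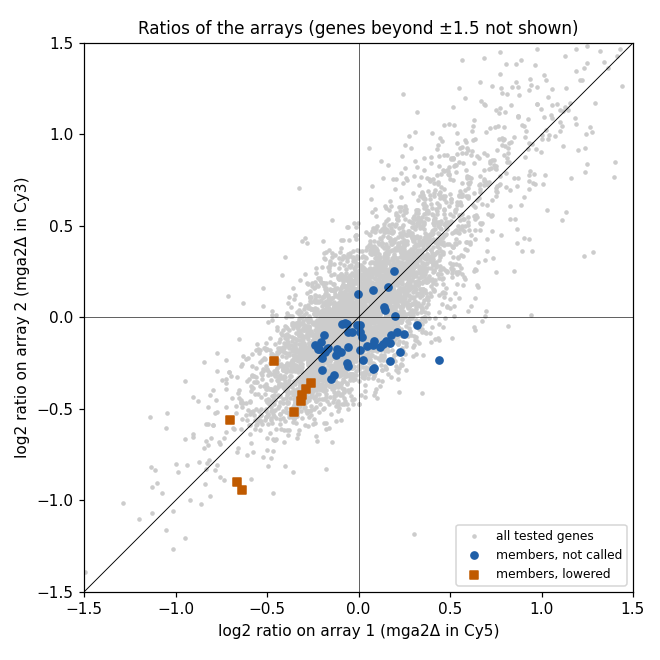
Log2 ratio on array 1 (horizontal axis) against array 2 (vertical axis) for all tested genes (grey), members not called (circles) and lowered members (squares), with the line of equal ratios. Of the 61 members, 46 lie below the line, and the 9 lowered genes lie below 0 on both axes.

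Members differed in how well their arrays matched. The widest gap was that of mrpl35, at 0.44 on array 1 and −0.23 on array 2 (0.10 ± 0.48). The 3 spots of the probe spread by only 0.02 and 0.09 (SD within an array), so the gap lay between arrays. The next widest gaps were those of mrp20 (0.23 and −0.19), mrpl23 (0.17 and −0.24) and mrp4 (0.08 and −0.28). At the other end mrp10, which in budding yeast is a small cysteine-rich protein of the small subunit, stood at −0.17 on each array (adjusted p = 0.203). The median SD over arrays was 0.09 for the members and 0.10 for all tested genes. The median SD among spots of a member's probe was 0.04 on each array.

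The faintest and brightest member probes were examined for a relation of the call to signal. The 4 with the lowest mean signal were mrps26, mrpl24, mrpl27 and mrp10, with ratios of −0.14, −0.05, −0.16 and −0.17, none of them called. In the authors' deposited ratios these 4 stood at −0.55, −0.33, −0.42 and −0.44, and each passed the same limma test (adjusted p = 0.00624, 0.0396, 0.0164 and 0.0136). The 4 with the highest mean signal were rsm18, mrp2, mrpl1 and mrp11, with ratios of −0.04, 0.14, −0.03 and −0.01, and none was called. In total 21 members were lowered with the deposited ratios, the 9 above and 12 others, where 22.9% of all tested genes were lowered. How the deposited ratios were normalized is not given in those notes or headers that were used here.

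Genes beside the lowered members on the chromosome were mostly not called. By the gene order of assembly ASM294v3, the 9 genes have 18 protein-coding neighbours with a probe. Of these, 2 were lowered and 2 raised, with a median of −0.05. The 103 neighbours of the other members included 11 lowered and 11 raised, with a median of −0.06. In both sets the share lowered was near that of all tested genes (10.9%), and the share raised was below theirs (18.4%). The lowered neighbours of the 9 genes were rrs1, a ribosome assembly factor beside rsm23 (−0.52, limma adjusted p = 0.0108), and scp1, the sterol sensor that escorts SREBP, beside mrpl3 (−0.50, adjusted p = 0.0217). The raised ones were mdm34, a protein of the contact between endoplasmic reticulum and mitochondria, beside mrpl51 (0.32, adjusted p = 0.0365), and the phospholipase D gene pld1 beside rsm24 (0.34, adjusted p = 0.0305). Both neighbours of mrpl8, aga1 and osh41, stood near 0 (−0.05 and −0.01). Only mrps12 and mrpl28 are direct neighbours within the family, with ratios of 0.09 and −0.16, neither called.

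Further mitochondrial ribosomal protein genes carry names outside the rule. Of 8 such genes tested, bot1, which is needed for mitochondrial translation in fission yeast, was lowered, at −0.64 on array 1 and −0.45 on array 2 (−0.55 ± 0.13, limma adjusted p = 0.0075, n = 2 arrays). The other 7, mhr1, nam9, yml6, rml2, sws2, mug178 and fyv4, lay between −0.26 and 0.09 and were not called. The median of the 8 was −0.17, and the share lowered was 12.5%, against 10.9% of all tested genes.

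Other genes of mitochondrial translation fell in part and rose in part. A list made by symbol held 46 genes, mainly translation factors, assembly factors and RNA-binding proteins. Some, such as mto1, may share only the name. Of the 46, 8 were lowered and 2 raised (17.4% and 4.35%), against 10.9% and 18.4% of all tested genes. Their median was −0.16. The lowered ones with the largest drops were atp25, which in budding yeast stabilises an ATP synthase mRNA (−0.55 ± 0.01), ppr3, an RNA-binding pentatricopeptide repeat protein (−0.53 ± 0.34), and oxa102, which inserts proteins into the inner membrane (−0.50 ± 0.04). Raised were ppr8, another pentatricopeptide repeat protein (0.49 ± 0.19), and mdm28 (0.30 ± 0.01). Of 12 genes of mitochondrial tRNA charging, 3 were lowered and 1 raised (25% and 8.33%, beside the same shares of all tested genes), with a median of −0.20. The lysine enzyme gene msk1 was lowered most (−0.69 ± 0.14, limma adjusted p = 0.00303, n = 2 arrays), followed by dia4 for serine (−0.45 ± 0.12), while msy1 for tyrosine was raised (0.80 ± 0.01, adjusted p = 0.00109).

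Nuclear genes of the respiratory chain and ATP synthase, some of whose partners the mitochondrial ribosome makes, did not share the members' median. Of 52 tested, 6 were raised (11.5%, against 18.4% of all tested genes) and 4 lowered (7.69%, against 10.9%), with a median of 0.01. The largest rise was that of cox17, a copper chaperone of cytochrome oxidase (0.55 ± 0.42, adjusted p = 0.0319). The largest drops were those of atp25, which is in both lists, and of cox1101 (−0.43) and cox1102 (−0.37), close copies that may share signal. The list for the cytoplasmic ribosome took 141 genes by the prefixes rpl, rps and rpp alone. It may hold other genes with such names, and rpp1, rpp21 and rpp40 were not checked. The test called 21 of the 141 lowered (14.9%) and 1 raised (0.709%), and the median was −0.11. That median was −0.67 with median centring, where the mitochondrial set stood at −0.06. The nucleolar list took 61 genes by prefixes common among ribosome assembly genes, such as utp, rrp and nop. Not every gene so named need act in ribosome assembly. Of the 61, 24 were lowered (39.3%) and 0 raised, with a median of −0.26. Only 2 of them were lowered with 2.81 prior degrees of freedom (3.55% of all tested genes), 1 with spike-in centring (3.79%) and 0 with median centring (0.524%). Spike-in centring raised 1 of them and 16 respiratory genes, where 38.7% of all tested genes were raised. With median centring no gene of these lists was called. With spike-in centring the medians became 0.04 for translation factors, 0.00 for tRNA charging, 0.21 for the respiratory chain, 0.09 for cytoplasmic and −0.06 for nucleolar genes. Differences between lists were not tested.

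**Figure D4:**
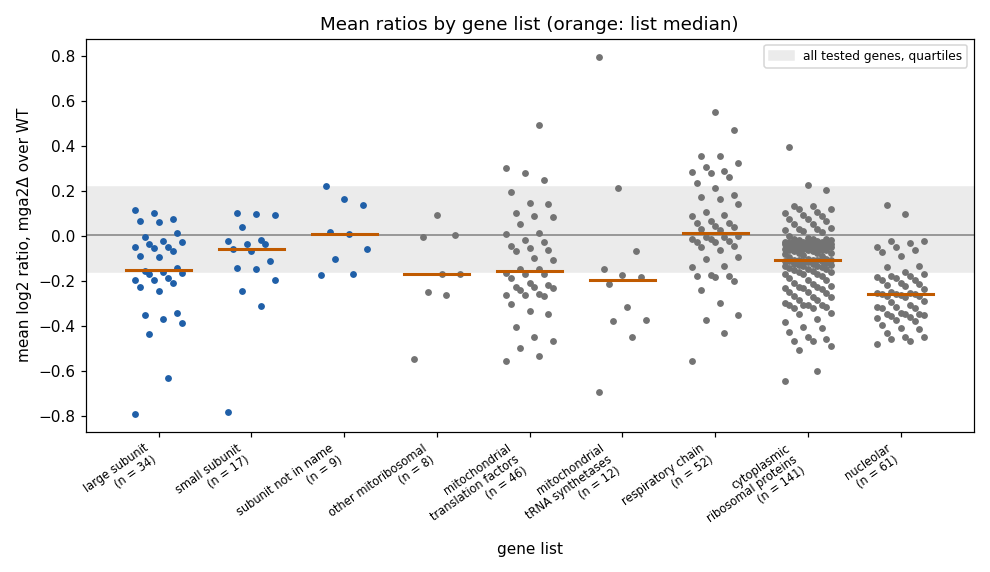
Mean log2 ratio of each gene (points) by list, with the list median (line) and the quartiles of all tested genes (grey band). The large-subunit median lies at −0.15, the small-subunit median at −0.06, the respiratory chain at 0.01 and the nucleolar list at −0.26. Members with no subunit in symbol or synonym are shown apart, and all lists rest on symbols.

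The members' median lay below that of all tested genes in each of 13 alternative settings run on both arrays. It was between −0.20 and −0.06 in 12 of them, the exception being spike-in centring. The same 9 genes were lowered in 10 of the settings. They stood alone without background correction (12.6% of all tested genes lowered), with a normexp offset of 16 (11.7%), with scale normalization (14%), over all probes (11.1%), with both channels above background (11%), in the separate-channel fit (12.5%) and with trend and robust settings (14%). The scanner's processed signals added 3 genes (16.4%), an adjusted p of 0.10 added mrpl38 (16.4%), and the deposited ratios added 12. Fewer were lowered with median centring (0 members, 0.524% of tested genes), with spike-in centring (3 members, 3.79%, against 6 raised and 38.7%) and with 2.81 prior degrees of freedom (3 members, 3.55%). On array 2 alone, 2 members were at least 1.5-fold lower (2.24% of tested genes), and on array 1 alone 3 were (2.68%).

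**Figure D5:**
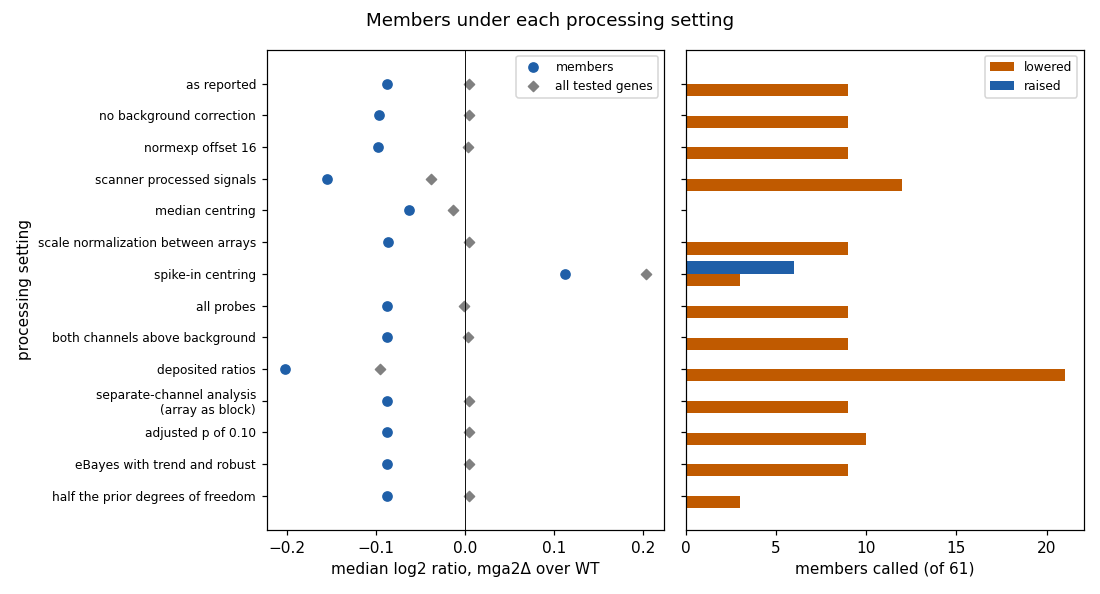
Median log2 ratio of the 61 members and of all tested genes (left) and number of members lowered or raised (right) under each processing setting. The members' median lies left of that of all tested genes in each row, and lowered calls range from 0 with median centring to 21 with the deposited ratios.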

How the data were processed

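The 2 arrays were scanned and extracted by the authors with Agilent Feature Extraction 10.5.1.1, per the file headers. The deposited scanner tables hold median intensity per spot and background, dye-normalized processed intensities and a log10 ratio of red to green signal. In the authors' deposited value table each probe has a log2 ratio per array, centred on each array's mean and running as mga2Δ over WT. Its medians are −0.078 and −0.115. Partek is named without a step in the submitters' processing notes.

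Median signals were background-corrected (normexp, offset 50) and normalized by loess with control and outlier spots at weight 0. Spots of a probe were averaged, and the sign of array 2 was turned (limma 3.58.1, R 4.3.3). Channel levels came from loess and Aquantile normalization. A probe was tested with at least 2 spots well above background in either channel on each array. Names came from a RefSeq table of ASM294v3: 5021 probes matched a locus tag, 3 an alias, and 33 went unmatched. That table holds no product text, so lists rest on symbols. The symbol pdf1 was left out as another gene's name, and the nucleolar list kept the prefixes utp, rrp, nop, nog and noc. Other symbols of the comparison lists were not checked against a product, so a list may hold genes that share only the name. Promoter and protein sequences were not analysed here.

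Members, lists and tests were chosen with earlier results of these data known. The rule for named genes took all called members, the 6 highest and 6 lowest, the 4 with the widest array gap, the 4 faintest and 4 brightest, and up to 3 called genes per other list. Other genes (rsm1, mrpl37, mrpl12, mrpl38, mrp5, mrps12, mrps16, mrpl28, the neighbours of lowered members, the uncalled genes of the list outside the rule, ppr8 and mdm28) were named after their values were seen. Alternatives are given below. The steps were tested on 20 sets of simulated arrays: most changed genes were recovered, but with so few arrays the prior degrees of freedom were estimated poorly, and false calls were more frequent than the threshold in most sets. Figures were drawn with Python 3.11.15 and matplotlib 3.10.9.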

Additional observations from a re-analysis of the deposited data

How the results depend on the processing

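Of the alternatives run, no background correction, normexp with offset 16, the processed signals, scale normalization, testing every probe, requiring both channels above background, an adjusted p of 0.10, and eBayes with trend and robust settings kept the 9 lowered calls, with 0 members raised. Separate-channel analysis with the array as a replicate block gave 9 lowered and 0 raised. With median centring 0 members were lowered (0.524% of tested genes). With 2.81 prior degrees of freedom 3 were (3.55%). With spike-in centring 3 were lowered (3.79%) and 6 raised (38.7%), and the median was 0.11. With the deposited ratios 21 were lowered (22.9%), at a median of −0.20. In each of these the cause was not tested. A single array allows no call, so members changed by at least 1.5-fold were counted: 2 lowered on array 2 alone and 3 on array 1 alone, and 0 raised on either (10.4% and 8.34% of tested genes were), with medians of −0.16 and −0.06. Leaving out rsm1, chosen after seeing the data, gave a median of −0.08. No lowered member changed sign in any setting. In the settings run on both arrays, sign changed in 10 members named by rule that were not called, none of them called afterwards: mrp20 stood at −0.063 with processed signals and −0.14 with deposited ratios, and with spike-in centring mrpl23 stood at 0.17, mrp4 at 0.10, mrps26 at 0.058, mrpl24 at 0.15, mrpl27 at 0.035, mrp10 at 0.032, rsm18 at 0.16, mrpl1 at 0.17 and mrp11 at 0.19. Only members named by rule were counted here. Spike-in centring subtracted the spike-in median of −0.20 from every ratio, so unnamed members between −0.20 and 0 also turned positive there. Between single arrays sign differed in 22 members, mrpl35 and mrp2 among them. With 1 residual degree of freedom the calls rest on the prior spread, and drops near the threshold are the least certain. False calls on simulated arrays exceeded the threshold in most draws.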
